A study of Macaca fascicularis with 10 samples.

Results

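ZIC2, SOX11 and DCX are 3 genes of the early neural plate and of young neurons, and their signals were followed over 10 arrays of cynomolgus monkey (Macaca fascicularis) cells. Every probe set whose only annotated symbol is ZIC2, SOX11 or DCX was taken, which gave 6 probe sets of 52707: 1 for ZIC2, 3 for SOX11 and 2 for DCX. Of these 6, 5 were above the median signal of their array on at least 2 arrays and were tested, among 34139 tested probe sets in all. RNA of each sample was hybridised to 1 Affymetrix Rhesus Macaque array, a chip designed on the rhesus genome, and each value is the linear MAS5 signal intensity of a probe set. Parthenogenetic haploid embryonic stem cells (PG-haESCs, from eggs developed without a sperm genome, labelled haploid) gave 5 arrays. Arrays 1 to 4 are of line MPH1 at passages 8, 11, 7 and 9, the first pair under sample code M1 and the second pair under M2, and array 5 is of line MPH2 at passage 4. A further 3 arrays hold embryonic stem cells (ESCs) labelled diploid, derived after fertilisation by intracytoplasmic sperm injection (ICSI): line MES1 at passage 12, and lines MES2 and MES3 at passage 4. The last 2 arrays are of a diploid sample named MF at passages 14 and 15, whose label calls it female somatic fibroblasts. All 10 labels carry the same growth text, which describes stem cells on feeder cells in a medium with the kinase inhibitors Y27635 and Thiazovivin. Nothing in the labels ties arrays of a line to separate cultures. The p-values thus weigh group differences against the spread among these samples only, which may in part be technical variation.

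ZIC2 encodes a zinc finger transcription factor of the neural plate and dorsal midline, whose loss disturbs division of the forebrain, and it is also active in primed pluripotent cells. SOX11 encodes an SRY-box transcription factor of the SOXC group, which acts in neural progenitors and newly formed neurons. DCX encodes doublecortin, a protein that binds and stabilises microtubules in migrating young neurons and serves as a marker of them.

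The 3 groups carried the markers of pluripotent and differentiated cells as follows. Of 13 tested core pluripotency genes, 10 were called higher in PG-haESCs and in ICSI ESCs than on the arrays labelled fibroblast, where 23.0% and 22.5% of all genes were called higher. Those arrays had all 14 fibroblast and feeder genes above the array median, but so did most stem cell arrays, with 12 to 14 of 14. They also had all 12 epidermal genes (keratins and genes of the cornified layer) above it, against 3 to 5 of 12 on the stem cell arrays. The summed signal of the fibroblast and feeder genes was 255009 to 255133 on the arrays labelled fibroblast, 30066 to 107904 on PG-haESC arrays and 44942 to 234635 on ICSI ESC arrays, with the maximum of the stem cells on MES1. Array medians ran from 76.8 to 133, after scaling of every array to a common trimmed mean, and how precise any value can be depends on the small number of arrays.

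ZIC2 was high in both kinds of stem cell and lay below the array median on both arrays labelled fibroblast. Its single probe set (MmugDNA.2029.1.S1_at) read 5089 and 12194 on the MPH1 arrays with code M1, 7819 and 9030.1 on those with code M2, and 4221 on the MPH2 array. The ICSI ESC arrays of MES1, MES2 and MES3 read 15735, 11559 and 9450.0, and the arrays labelled fibroblast 38.0 and 31.3. MPH2 was thus the lowest stem cell array and MES1 the highest, and the array of MPH1 at passage 11 reached into the ICSI ESC range. Divided by the array median, ZIC2 was 53.0 to 100.4 in PG-haESCs and 99.0 to 151 in ICSI ESCs, so the ranges also touched on that scale, through MPH1 at passage 7.

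Against the arrays labelled fibroblast, ZIC2 rose in PG-haESCs by 7.58 ± 0.43 on the log2 scale (SE, limma, adjusted p = 1.8e-07). The geometric mean was 7135 (SD 0.62 log2, n = 5) against 34.5 (SD 0.20 log2, n = 2), and the fold was at least 61.7. Where no array of the dimmer group reaches its own median, the medians stand in for its signals and the fold reads "at least". If that dimmer group is the arrays labelled fibroblast, the probe set passed the filter through stem cell arrays alone. In ICSI ESCs, with a geometric mean of 11979 (SD 0.37 log2, n = 3), ZIC2 rose by 8.44 ± 0.44 log2, at least 104-fold (limma, adjusted p = 1.0e-07). In bulk RNA, fewer expressing cells and less RNA per cell cannot be told apart. Between PG-haESCs and ICSI ESCs the log2 difference was -0.86 ± 0.36 (95% interval -1.63 to -0.09), which missed the threshold after adjustment over all probe sets (limma, adjusted p = 0.58). Log2 changes weight the arrays by line and need not equal the ratio of printed means.

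**Figure D1:**
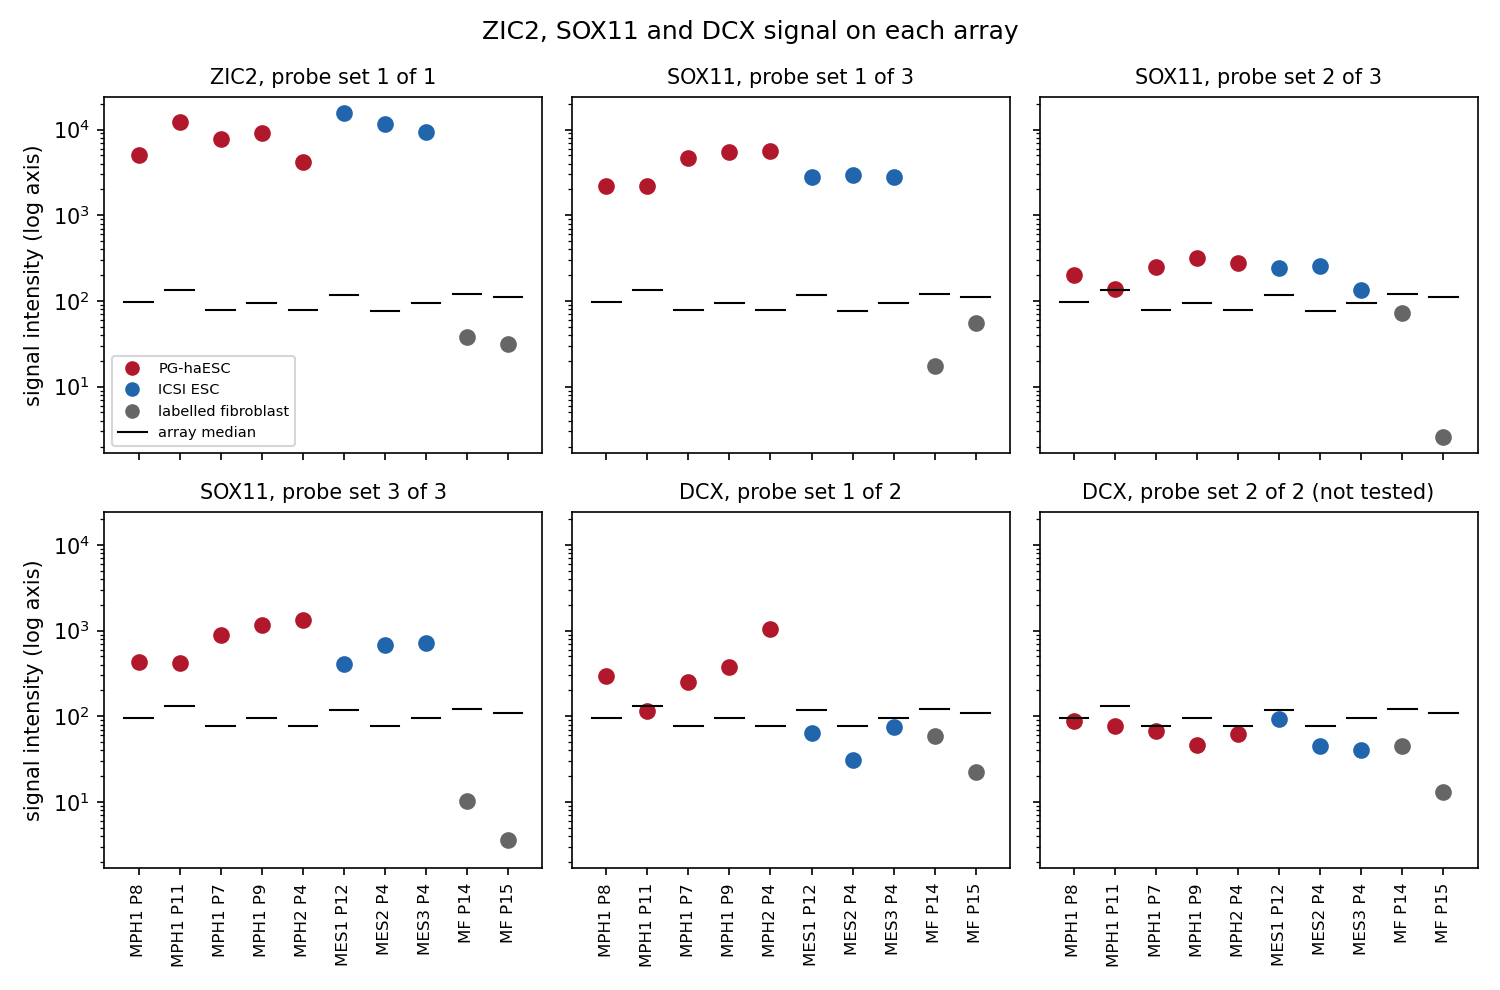
Signal intensity (log axis) of the 6 probe sets on each of the 10 arrays, named by line and passage, with a short line at each array's median signal; the colours mark PG-haESC, ICSI ESC and labelled fibroblast. ZIC2 and the 3 SOX11 probe sets lie above the array median on all 8 stem cell arrays and below it on both arrays labelled fibroblast, and the first DCX probe set lies above it on 4 PG-haESC arrays only.

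SOX11 was likewise high in both kinds of stem cell. Its brightest probe set (MmugDNA.22295.1.S1_at), which stands for the gene below, read 2219 and 2177 on the M1 arrays of MPH1, 4680 and 5409 on the M2 arrays, and 5689 on the MPH2 array. ICSI ESC arrays read 2766, 2940 and 2823 for MES1, MES2 and MES3, and the arrays labelled fibroblast 17.4 and 55.0. In this probe set the 3 ICSI ESC lines differed little among themselves, and their values fell into a gap between the M1 arrays below and the M2 and MPH2 arrays above. Geometric means were 3702 (SD 0.69 log2, n = 5) in PG-haESCs, 2842 (SD 0.045 log2, n = 3) in ICSI ESCs and 30.9 (SD 1.18 log2, n = 2) on the arrays labelled fibroblast. The rise over the latter was 6.995 ± 0.61 log2 in PG-haESCs, at least 31.996-fold (limma, adjusted p = 4.6e-06), and 6.52 ± 0.61 log2 in ICSI ESCs, at least 24.6-fold (limma, adjusted p = 8.9e-06). PG-haESCs and ICSI ESCs differed by 0.47 ± 0.50 log2 (95% interval -0.61 to 1.56, limma, adjusted p = 0.96), with overlapping ranges.

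Both dimmer SOX11 probe sets gave the same order of the MPH1 codes. MmugDNA.28800.1.S1_at read 425 and 421 on the M1 arrays, 900 and 1160 on the M2 arrays, 1340 on the MPH2 array, 405, 673 and 707 on the ICSI ESC arrays, and 10.3 and 3.64 on the arrays labelled fibroblast. MmugDNA.28799.1.S1_at read 199 and 139, then 246 and 318, then 280 on the same PG-haESC arrays, 245, 254 and 134 on the ICSI ESC arrays, and 73.3 and 2.60 on the arrays labelled fibroblast. The ICSI ESC lines were less alike in these probe sets (SD 0.44 and 0.52 log2) and did not all fall between the codes. MES1 in the former and MES3 in the latter lay below both M1 arrays. The M2 arrays exceeded the M1 arrays by 2.29-fold, 2.41-fold and 1.68-fold in the brightest probe set, MmugDNA.28800.1.S1_at and MmugDNA.28799.1.S1_at, although the titles name a single line for both codes. This split was noticed in the values, and no test was made of it. ZIC2 differed between the codes by 1.07-fold. Both dimmer SOX11 probe sets were also called higher in PG-haESCs (log2 7.07 ± 0.69 and 4.09 ± 1.26, limma, adjusted p = 1.1e-05 and 0.025) and in ICSI ESCs (6.56 ± 0.70 and 3.88 ± 1.27, adjusted p = 2.3e-05 and 0.033). The dimmest, MmugDNA.28799.1.S1_at, had lower bounds of 1.96-fold and 1.75-fold. Without fibroblast array 2, where it read 2.60, its change over the arrays labelled fibroblast was 1.67 log2 in PG-haESCs and 1.47 in ICSI ESCs (limma, adjusted p = 0.061 and 0.10), and neither was a call. The PG-haESC call was also lost without PG-haESC array 2 (adjusted p = 0.065), and the ICSI ESC call without MES2 (0.069) or PG-haESC array 1, 2 or 3 (0.053, 0.079 and 0.054). Both were lost with no intensity trend, with passage as a covariate, and with signals below the array median raised to it, so the calls of this dim probe set are not firm.

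Of the 3 genes, DCX had the largest log2 difference between PG-haESCs and ICSI ESCs, without passing the test over all probe sets. Its brighter probe set (MmugDNA.19033.1.S1_at) read 298 and 115 on the M1 arrays of MPH1, 250 and 378 on the M2 arrays, and 1055 on the MPH2 array. ICSI ESC arrays read 64.0, 30.7 and 74.4, and the arrays labelled fibroblast 58.2 and 22.3. All 5 PG-haESC arrays lay above all 5 others, and MPH2 was 2.79-fold above the next stem cell array. The brightest probe sets of SOX2 and DCLK1 also had no overlap between the stem cell groups, and how many of all genes separate this way was not counted. As multiples of the array median, the PG-haESC arrays had 3.10, 0.87, 3.20, 3.94 and 13.5, the ICSI ESC arrays 0.55, 0.40 and 0.78, and the arrays labelled fibroblast 0.48 and 0.20. DCX was therefore below the array median on every ICSI ESC array, on both arrays labelled fibroblast, and on MPH1 at passage 11. It passed the filter on dim probe sets through 4 PG-haESC arrays alone.

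The geometric mean of DCX was 321 in PG-haESCs (SD 1.16 log2, n = 5), 52.7 in ICSI ESCs (SD 0.68 log2, n = 3) and 36.0 on the arrays labelled fibroblast (SD 0.98 log2, n = 2). PG-haESCs exceeded ICSI ESCs by 2.86 ± 0.73 log2 (95% interval 1.27 to 4.45), at least 3.38-fold, with an adjusted p of 0.15 (limma), which is not a call. Without the MPH2 array the difference was 2.18 log2 (limma, adjusted p = 0.28). Against the arrays labelled fibroblast, DCX rose in PG-haESCs by 3.41 ± 0.89 log2, at least 2.77-fold (limma, adjusted p = 0.011). That call was lost without fibroblast array 2 (2.69 log2, limma, adjusted p = 0.064), with signals below the array median raised to it (1.77 log2, adjusted p = 0.052) and with passage as a covariate (2.45 log2, adjusted p = 0.13). ICSI ESCs and the arrays labelled fibroblast, both dim, differed by 0.55 ± 0.90 log2 (95% interval -1.40 to 2.50, limma, adjusted p = 0.69). The other DCX probe set (MmugDNA.33022.1.S1_at) lay below the array median on all 10 arrays, at 13.0 to 92.3. It was not tested, and its MPH2 signal of 62.3 did not stand above the other stem cell arrays, so the rise of DCX on MPH2 rests on 1 probe set.

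DCX lies on the X chromosome in the RefSeq assembly T2T-MFA8v1.1, while ZIC2 is placed on chromosome 17 and SOX11 on chromosome 13. Between PG-haESCs and ICSI ESCs, the median log2 change was 0.67 over 380 tested X-linked genes and -0.03 over 10196 autosomal genes. Of the X-linked genes, 36 (9.47%) were called higher in PG-haESCs and 0 lower, against 12 (0.118%) higher and 8 lower of the autosomal genes. The change of DCX, 2.86, lay above the 90th percentile of the X-linked genes, 1.23, and 2 other X-linked genes and 9 autosomal genes had a change as large. That 2.86 rests on ICSI ESC signals below the array median, and its lower bound was 3.38-fold. The part of the X-wide shift in the DCX difference was not tested.

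Over all genes, few differed between the stem cell groups. Of the 34139 probe sets, 0.451% were called between PG-haESCs and ICSI ESCs (154, and from 8 without MES3 to 393 without MES1 when single arrays were left out, with each array except MPH2 moving the count by over 1.5 times), and none of the 5 tested ZIC2, SOX11 and DCX probe sets was among them by limma; ZIC2 and DCX had unadjusted p of 0.032 and 0.0020, among 2515 probe sets under 0.05. By gene, 0.505% were called higher and 0.0685% lower in PG-haESCs. Of the 59 genes called higher, 36 are X-linked. Because line MPH1 makes up 4 of the 5 PG-haESC arrays, the arrays of a line were also averaged first, which left 9 probe sets called, 0% of them higher in PG-haESCs; averaged by sample code, 20 were called, 35% of them higher. In PG-haESCs against the arrays labelled fibroblast, 33.0% of probe sets were called, with 23.0% of genes higher and 17.2% lower, and all 5 tested probe sets of ZIC2, SOX11 and DCX were called higher. Between ICSI ESCs and the arrays labelled fibroblast, 32.7% of probe sets were called, with 22.5% of genes higher and 17.0% lower, and the 4 probe sets of ZIC2 and SOX11 were called higher. These comparisons share the arrays labelled fibroblast. Among the calls counted, those of SOX11 probe set MmugDNA.28799.1.S1_at were not firm, and the DCX probe set passed the filter through 4 PG-haESC arrays alone. The ZIC2 and SOX11 probe sets were above the array median on the 8 stem cell arrays alone and passed the filter through them. All 5 probe sets thus entered the tests through groups where they were high, so their calls are not an unselected share to set beside that of all genes. In order of level, ZIC2 was highest in ICSI ESCs and then PG-haESCs, SOX11 in PG-haESCs and then ICSI ESCs, and in each case these neighbours overlapped. DCX was highest in PG-haESCs, and its lower neighbours, ICSI ESCs and the arrays labelled fibroblast, overlapped.

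Among the 8 stem cell arrays the 3 genes did not move as a block. DCX spanned 34.4-fold from its lowest to its highest stem cell array, ZIC2 3.73-fold and SOX11 2.61-fold. The array with the highest DCX and SOX11, MPH2, had the lowest ZIC2. The log2 signals of DCX and ZIC2 ran in opposite directions (Pearson r = -0.82 over 8 arrays, -0.68 over 7 without MPH2), and DCX and SOX11 in the same direction (0.63, and 0.43 without MPH2). These are descriptions, since 4 of the 8 points are of line MPH1 and 3 of ICSI ESC lines. Some of these levels moved with the array median: with the log2 array median, r was 0.54 for ZIC2, -0.60 for SOX11 and -0.25 for DCX, and without the 2 stem cell arrays of highest median 0.02, -0.37 and 0.05. With the mean log2 level of the fibroblast and feeder genes, which peaked on MES1, r was 0.31, -0.04 and 0.11. The part of either in the pattern was not tested.

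**Figure D2:**
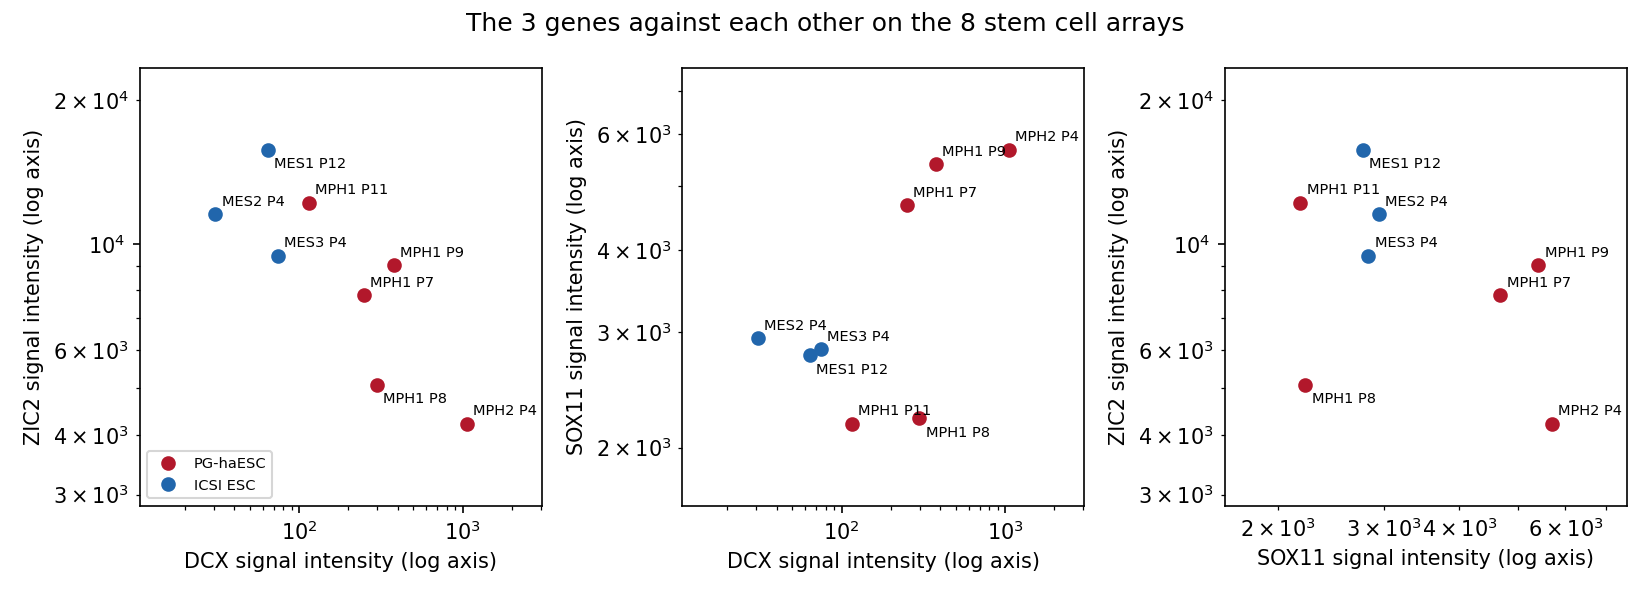
Signal intensities (log axes) of DCX against ZIC2, DCX against SOX11 and SOX11 against ZIC2 on the 8 stem cell arrays, each point named by line and passage, with PG-haESC arrays in red and ICSI ESC arrays in blue. MPH2 combines the highest DCX (1055) and SOX11 (5689) with the lowest ZIC2 (4221), and the 3 ICSI ESC arrays sit together at low DCX.

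The relatives of the 3 genes were compared from lists of their families. ZIC5, which lies next to ZIC2 in T2T-MFA8v1.1, read 165, 198, 154, 219 and 113 on PG-haESC arrays 1 to 5, 197, 213 and 404 on the ICSI ESC arrays, and 2.69 and 31.2 on the arrays labelled fibroblast. As for ZIC2, MPH2 was the lowest stem cell array, while the highest was MES3 rather than MES1. ZIC5 rose against the arrays labelled fibroblast by 4.09 ± 0.99 log2 in PG-haESCs, at least 1.43-fold, and by 4.81 ± 1.00 in ICSI ESCs, at least 2.22-fold (limma, adjusted p = 0.0070 and 0.0028). ZIC4 was above the median on 1 array and was not tested. No probe set is named ZIC1 or SOX1 in the annotation used.

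The other SOXC genes, SOX4 and SOX12, act with SOX11 in neural progenitors. The brightest SOX4 probe set (MmuSTS.3908.1.S1_at) had geometric means of 19489 in PG-haESCs, 21996 in ICSI ESCs and 5768 on the arrays labelled fibroblast, a rise of 1.62 ± 0.41 and 1.93 ± 0.42 log2 (limma, adjusted p = 0.0090 and 0.0034). SOX12 rose by 2.06 ± 0.37 and 2.33 ± 0.38 log2 (limma, adjusted p = 0.0011 and 0.00049), with means of 428 and 496 over 98.8. Neither differed between PG-haESCs and ICSI ESCs by the test (log2 -0.31 and -0.26, limma, adjusted p = 0.96 and 0.97). SOX2, the SOXB1 factor of pluripotent cells and of the neural plate, rose by 7.97 ± 0.26 log2 in PG-haESCs and 7.54 ± 0.27 in ICSI ESCs in its brightest probe set, at least 120-fold and 87.0-fold (limma, adjusted p = 4.0e-09 and 8.6e-09). The X-linked SOXB1 gene SOX3 rose by 4.98 ± 0.50 and 4.13 ± 0.50 log2, at least 11.7-fold and 6.50-fold (limma, adjusted p = 1.3e-05 and 6.1e-05).

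DCLK1, a kinase with a doublecortin domain, ran against DCX in its brightest probe set. That probe set (MmuSTS.1273.1.S1_at) read 878, 1148, 474, 418 and 227 on PG-haESC arrays 1 to 5, 2001, 2140 and 1353 on the ICSI ESC arrays, and 536 and 425 on the arrays labelled fibroblast. All ICSI ESC arrays exceeded all PG-haESC arrays, and MPH2, the highest array for DCX, was the lowest for DCLK1. How many of all genes separate this way was not counted. The log2 difference between PG-haESCs and ICSI ESCs was -1.92 ± 0.49 (95% interval -2.98 to -0.86, limma, adjusted p = 0.15). ICSI ESCs exceeded the arrays labelled fibroblast by 1.91 ± 0.60 log2 (limma, adjusted p = 0.027). The dimmer DCLK1 probe sets did not follow, with log2 differences of -0.43 and -0.80 in the latter comparison. Between PG-haESCs and ICSI ESCs they had -1.04 and -0.21, with overlapping ranges and no call. DCDC2, another doublecortin-domain gene, was called higher in PG-haESCs than on the arrays labelled fibroblast (3.03 ± 1.04 log2, limma, adjusted p = 0.041), but it was above the array median on 2 PG-haESC arrays alone and passed the filter through them, so its change has no firm size. DCLK2 had log2 changes of -1.08 to 1.00 without a call, and DCLK3 was below the median on all 10 arrays.

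**Figure D3:**
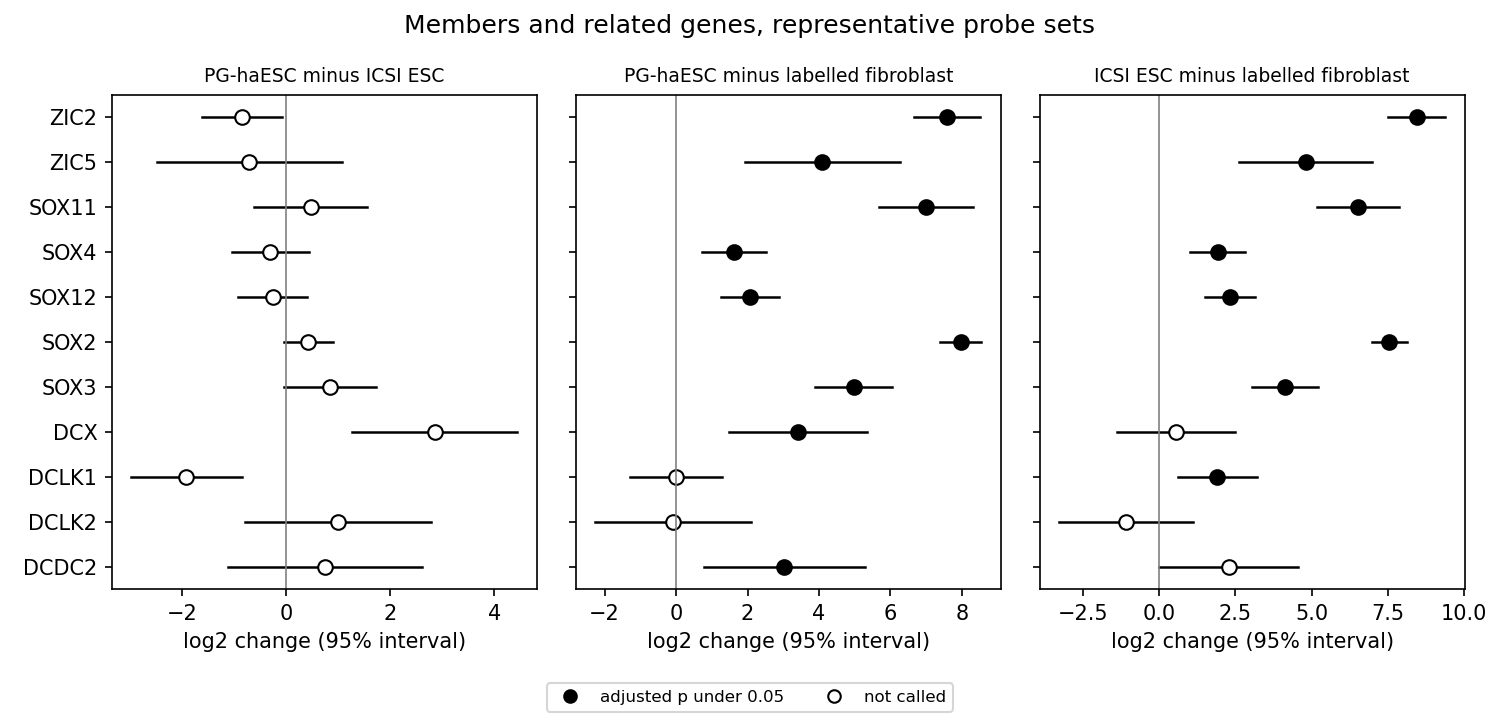
Log2 change with its 95% interval for the representative probe sets of ZIC2, SOX11, DCX and their tested relatives in the 3 comparisons, filled where the adjusted p was under 0.05. None of the 11 genes was called between PG-haESCs and ICSI ESCs, where DCX (2.86) and DCLK1 (-1.92) lie farthest from 0.

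Neural plate regulators as a list did not share the rise of ZIC2 and SOX11 over the arrays labelled fibroblast. Of 36 listed genes, 25 had a named probe set and 19 were tested. In PG-haESCs 5 of 19 (26.3%, against 23.0% of all genes) were called higher and 4 (21.1%, against 17.2%) lower, with a median log2 change of -0.05 beside 0.06 over all genes. In ICSI ESCs 5 were higher and 3 lower, with a median of -0.55 beside 0.08. The shares in PG-haESCs were near those of all genes, and the number lower there fell to 2 without fibroblast array 1 and 1 without fibroblast array 2, and that in ICSI ESCs became 5 without MES1. Those called higher in PG-haESCs were GMNN, which holds back replication licensing (2.89 ± 0.23 log2), PROM1, a membrane protein of progenitors (3.92 ± 0.33), SFRP2, a secreted WNT modulator (4.14 ± 0.42), HESX1, a homeobox repressor of the forebrain (3.89 ± 0.73, at least 5.64-fold), and DLK1 (3.76 ± 1.09, at least 2.97-fold). Their adjusted p ran from 2.4e-06 to 0.018 (limma). The transcription factor genes IRX3 (-2.18 ± 0.44), POU3F1 (-2.49 ± 0.60), IRX5 (-2.38 ± 0.80) and EMX2 were called lower (limma, adjusted p from 0.0021 to 0.036). EMX2 was above the median on the arrays labelled fibroblast alone (762 and 715), and passed the filter through them; its fall in PG-haESCs was at least 7.84-fold. Between PG-haESCs and ICSI ESCs none of the 19 passed by limma, and the median change was 0.28 beside -0.02 over all genes. The smallest p there was that of POU3F1, at 1.63 ± 0.49 log2 (limma, adjusted p = 0.28).

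Within the stem cell arrays, several neural plate genes were highest on MPH2, as DCX was. Of the 25 genes with a probe set, 7 (28.0%) had their highest stem cell signal on that array and above its median, against 11.5% of 14132 genes. Some other lists peaked there about as often: among tested genes the counts were 7 of 19 neural plate genes (36.8%), 4 of 10 neural crest genes (40.0%) and 4 of 11 genes linked to SOX11 and ZIC factors (36.4%), against 13.8% of all tested genes. Partners of doublecortin had 2 of 7, new neuron genes 2 of 14, mesoderm genes 1 of 7 and core pluripotency genes 1 of 13. Endoderm (0 of 9), fibroblast and feeder (0 of 14) and epidermal genes (0 of 12) had no peak there. TFAP2A (3367), BMP4 (1116), ID1 (14855) and ID3 (12789) were highest on MPH2. Of the 13 tested core pluripotency genes, POU5F1 (17259.6), GDF3 (109) and TERT (75.3, below the array median) had their lowest stem cell signal there. LIN28B (9325) had its highest there, and the others, SOX2 and NANOG among them, had neither. ZFP42 read 361 on MPH2 and 92.8 on MES1, against 1159 to 1860 on the other stem cell arrays. The mean log2 signal of the list was 10.41 on MPH2 and 10.37 on MES1, and 10.82 to 11.01 on the others. NANOG read 2083 and 1904 on the arrays labelled fibroblast, within its stem cell range, so its probe set does not set the groups apart. NR2F1, a nuclear receptor of the early forebrain, read 3024 on MPH2, 1418 on MES1, 987 on MPH1 at passage 11 and 83.7 to 344 on the other 5 stem cell arrays. MEIS2, a homeobox gene, read 2106 on MPH2, 1248 on MES1 and 261 to 782 on the others. MES1 was second in both, and it was the stem cell array with the most fibroblast and feeder signal, whose part in these levels was not tested. SFRP2 read 6888 on MPH2 and 2132 to 4420 on the other 7. ZNF521, which promotes entry into the neural lineage, read 1030 on MPH2 and 243 to 507 on the others. PAX6, a master regulator of neuroectoderm, read 464 on MPH2 in its tested probe set and 1.84 to 110 on the others, and 161 against 13.0 to 84.3 in the dimmer one. IRX3 and LMO3 made up the 7, and LMO3 was about as high on MES2 (592) as on MPH2 (608). Its dimmer tested probe set did not peak on MPH2, with 79.4 there and 131 on MES2. HESX1 (351) and PROM1 (2623) had their lowest stem cell signal on MPH2, as ZIC2 did.

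HES5, the Notch target of neural progenitors, was singled out after its values were seen. Its probe set MmugDNA.30177.1.S1_at read 1877 on the MPH2 array and 5.80 to 21.8 on all 9 other arrays. It was above the median on a single array and was therefore not tested. The other HES5 probe set read 5.31 on MPH2 and did not follow. MPH2 is a single array of a single line, so its values have no replicate.

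**Figure D4:**
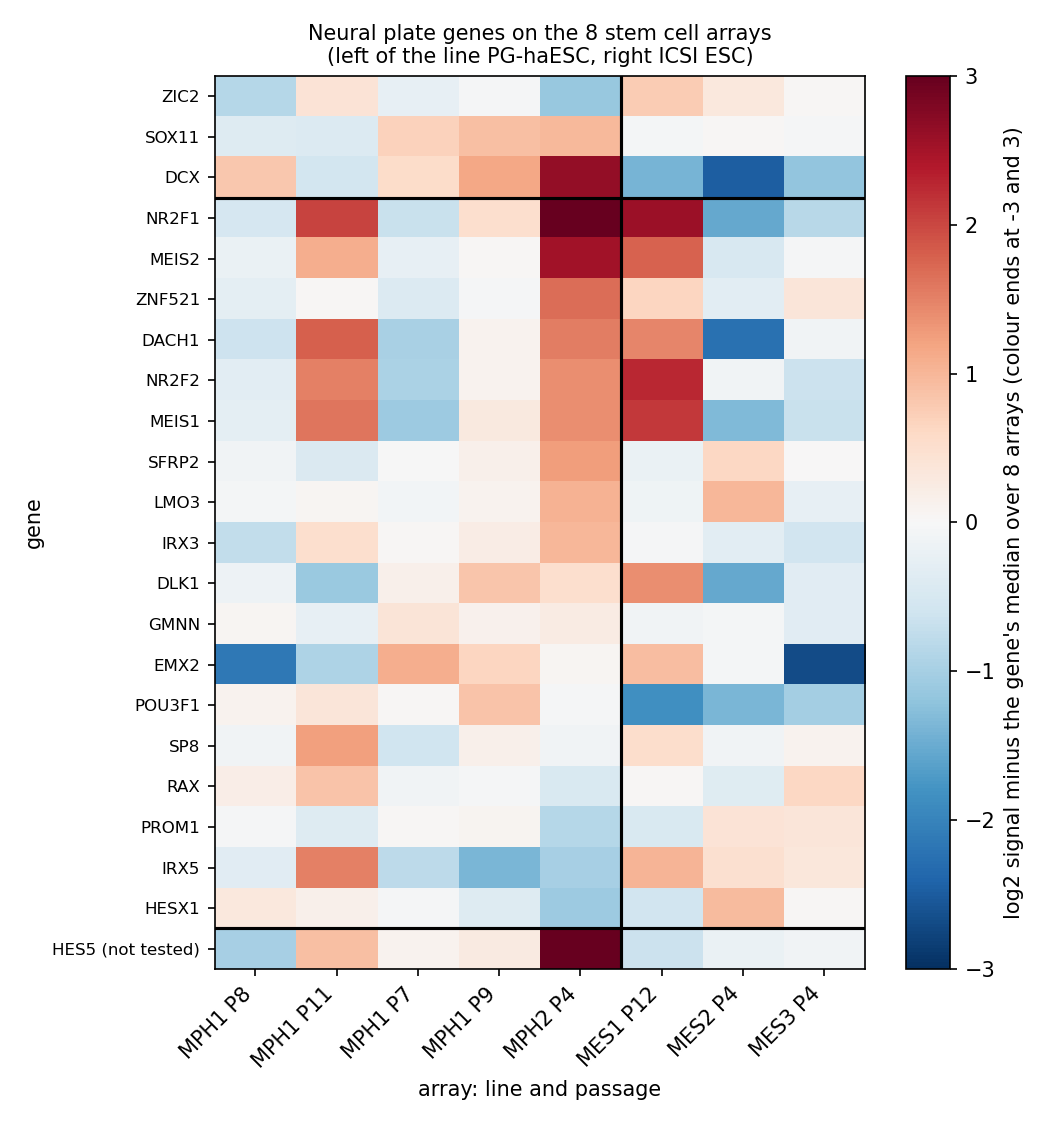
Log2 signal minus each gene's median over the 8 stem cell arrays, for ZIC2, SOX11 and DCX (top), 18 of the 19 tested neural plate genes (all but PAX6) ordered by their level on MPH2, and the untested HES5 probe set MmugDNA.30177.1.S1_at (bottom, chosen after its values were seen); colours end at -3 and 3. MPH2 is dark red for DCX, NR2F1, MEIS2 and HES5 and blue for ZIC2, PROM1 and HESX1, and MES1 shares the high NR2F1 and MEIS2.

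On MPH2, where DCX peaked, genes of newly formed neurons, the cells that DCX marks, were highest about as often as all genes. Of 32 listed, 22 had a probe set and 14 were tested. Against the arrays labelled fibroblast, 7 (50.0%, against 23.0% of all genes) were called higher and 3 (21.4%, against 17.2%) lower in PG-haESCs, with a median log2 change of 1.52 beside 0.06 over all genes. In ICSI ESCs 6 (42.9%, against 22.5%) were higher and 3 (21.4%, against 17.0%) lower, with a median of 1.67 beside 0.08. Among them CRMP1, an axon guidance protein gene, rose in PG-haESCs by 6.05 ± 0.35 log2 (at least 6.56-fold), SYT1, a synaptic vesicle calcium sensor, by 2.66 ± 0.25, and GAP43, of growth cones, by 3.59 ± 0.53, while STMN2, a neuronal stathmin, fell by 3.02 on the log2 scale (limma, adjusted p from 1.9e-07 to 0.00048). STMN2 averaged 524 in PG-haESCs and 4307 on the arrays labelled fibroblast. Between PG-haESCs and ICSI ESCs 0 of 14 were called by limma. At an unadjusted p under 0.05 there were 3 of 14, beside 2515 of the 34139 probe sets. The median change was 0.26, beside -0.02 over all genes. CRMP1 had 0.77 ± 0.28 log2 (limma, adjusted p = 0.48). Of the 22 genes, 3 (13.6%) were highest on MPH2 among the stem cell arrays, against 11.5% of all genes.

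Partners of doublecortin on microtubules were described by 7 tested genes of 17 listed. KIF2A, a kinesin that depolymerises microtubule ends, rose against the arrays labelled fibroblast by 2.60 ± 0.23 log2 in PG-haESCs, MAP1B, a microtubule-associated protein gene of growing axons, by 1.99 ± 0.18, TUBG1, of gamma-tubulin, by 1.51 ± 0.18 and CDK5R1, an activator of CDK5, by 1.60 ± 0.52 (limma, adjusted p from 5.4e-06 to 0.032). The same 4 genes were called higher in ICSI ESCs (1.35 to 2.39 log2), and none of the 7 was called lower in either. These 4 of 7 (57.1%) stand beside 23.0% and 22.5% of all genes called higher. TUBB3, a neuronal beta-tubulin gene, averaged 563, 659 and 504 in PG-haESCs, ICSI ESCs and on the arrays labelled fibroblast, and was not called in any comparison. Between PG-haESCs and ICSI ESCs none of the 7 passed by limma. At an unadjusted p under 0.05 there were 0 of 7, beside 2515 of the 34139 probe sets. The median change was -0.09, beside -0.02 over all genes.

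Genes linked to SOX11 and ZIC factors, among them the hedgehog effectors that ZIC proteins bind and BMP signals that hold back neural induction, gave 11 tested genes of 18. Against the arrays labelled fibroblast 5 were called higher in PG-haESCs (45.5%, against 23.0% of all genes) and 4 in ICSI ESCs (36.4%, against 22.5%). None was called lower, against 17.2% and 17.0% of all genes, and the medians were 0.75 and 0.05 log2. TEAD2, a SOX11 target, rose by 2.51 ± 0.23 log2 in PG-haESCs, and PRDM14, a pluripotency regulator, by 5.91 ± 0.68 (at least 21.7-fold), with NODAL at 3.51 ± 0.91 (at least 5.66-fold) and BMP4 at 1.03 ± 0.32 (limma, adjusted p from 7.1e-06 to 0.026). BMP4 came closest to a call between PG-haESCs and ICSI ESCs (1.27 ± 0.26 log2, means 779 and 341, limma, adjusted p = 0.063). ID1, a BMP target, had 1.36 ± 0.50 there (limma, adjusted p = 0.47). Neural crest genes, a neighbouring fate, had 10 tested of 14: FOXD3, also a pluripotency gene, rose in PG-haESCs by 4.26 ± 0.49 log2 (at least 13.5-fold) and TFAP2A, also an epidermal factor, fell by 3.58 on the log2 scale (limma, adjusted p = 4.1e-05 and 0.027), and no other was called in that comparison.

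Genes most like each member were named by Pearson r of log2 signal over all tested genes. Over all 10 arrays this likeness mostly reflects the contrast of stem cells with the arrays labelled fibroblast, since 1336 genes had r above 0.9 with ZIC2 and 1296 with SOX11. The closest to ZIC2 were CBX3 (0.995), CYRIB, UBE2D2, HNRNPC and KHDRBS1 (0.992), and to SOX11 CCNJL (0.993), OIP5, COA6, TDRP and CKAP5 (0.988). For DCX 8 genes passed 0.9, with FREM2 (0.947) first, followed by the X-linked CUL4B and MID1, CTNND2 and the X-linked MMGT1 (0.907). Over the 8 stem cell arrays, the closest to ZIC2 were ZNF710 (0.953), SLC34A2, PTPN12, TSPAN17 and LOC707124 (0.941). For SOX11 they were ID4 (0.963), SLC25A29, KLHL42, MSL1 and RFXAP (0.938), and for DCX SPATA2 (0.970), PRSS36, NEK3, the X-linked PJA1 and ANK2 (0.944). ID4, an inhibitor of helix-loop-helix factors, was, like SOX11, lower on the M1 arrays than on the other PG-haESC arrays, though highest on MPH1 at passage 9 rather than on MPH2: 2796 and 1836 on the M1 arrays, 7996 and 12243 on the M2 arrays and 8499 on MPH2, with 2912 to 4319 on the ICSI ESC arrays. Its signals of 6399 and 6474 on the arrays labelled fibroblast, where SOX11 was dim, did not follow SOX11.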

How the data were processed

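The deposited values are linear signal intensity per probe set, made by the authors with MAS5 per the submitters' processing notes; no source used here gives its release. Trimmed by 2% at both ends, array means ran from 500.033 to 500.043, so the arrays had been scaled alike. The table held no detection calls. After removal of 158 control probe sets, 34139 above the array median on at least 2 arrays were tested on log2 signal with limma 3.58.1 (R 4.3.3), in 1 model of 10 arrays with group means, line as a random block (correlation 0.29) and an intensity trend, two-sided. Benjamini-Hochberg adjustment ran over all of them, and an adjusted p under 0.05 was called. A gene (11676 in all) was represented by its brightest tested probe set. The method was tested on simulated data. Symbols came from the probe annotation supplied, and chromosomes from T2T-MFA8v1.1. Members and lists were chosen with earlier results of these data known. The named genes are all probe sets of the 3 genes and their families, the list members of smallest p and the 5 genes most alike, besides those marked as chosen after their values were seen. Deviations from the group mean of same-numbered ICSI ESC and fibroblast arrays had r of 0.024 and 0.031. The deviations of 2 fibroblast arrays mirror each other and PG-haESC arrays were not checked, so this cannot show whether numbers mark pairs. No label pairs the arrays beyond a number. Alternatives were other handling of line, code, number and passage, offset, scaling, filter, variance and probe sets, and leaving out arrays; the pair of stem cell arrays of highest median was left out after seeing the data. Plots were made in Python 3.11.15 with matplotlib 3.10.9.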

Additional observations from a re-analysis of the deposited data

Results flagged for a closer look

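Among 61 probe sets of the 3 genes, their families and the neural plate list, 6 had 1 PG-haESC array set far apart from the other 4 by Dixon's gap ratio, which chance gives in about 1 in 20 groups. That rate is for independent arrays of 1 kind. Here 4 of the 5 arrays are of line MPH1 and MPH2 is the only array of its line, so the rate does not describe them. In 5 of the 6 the array was MPH2. Both ZNF521 probe sets were high there, MmugDNA.25265.1.S1_at at 1030 (243 to 332 on the other 4 PG-haESC arrays) and MmugDNA.25263.1.S1_at at 957 (194 to 297). HES5 probe set MmugDNA.30177.1.S1_at read 1877 on MPH2 and 5.80 to 21.8 on the other 4, and LMO3 probe set MmugDNA.38070.1.S1_at 607.8 against 278 to 318. The other LMO3 probe set, MmugDNA.34565.1.S1_at, read 79.4 on MPH2 and 59.1 to 124 on the other 4. DCLK3 read 1.561 on MPH2 and 19.1 to 38.3 on the others, below the array median on every array. The remaining one was CRB2 probe set MmugDNA.37868.1.S1_at on MPH1 at passage 11, at 14.36 against 8.73 to 9.80, also below the array median. No probe set of ZIC2, SOX11 or DCX was set apart in this way among the PG-haESC arrays, DCX on MPH2 included.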

How the results depend on the processing

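The differences of ZIC2 and DCX between PG-haESCs and ICSI ESCs stayed uncalled and kept their direction under all alternatives run (27 and 26, the 75th percentile filter removing DCX), from -1.05 to -0.56 and from 1.96 to 3.27 log2. ZIC2 and SOX11 stayed called against the arrays labelled fibroblast under all alternatives except the replicate block. That is a fit with the replicate number as a block, though no label pairs the arrays beyond that number. There ZIC2 in PG-haESCs had 7.85 log2 (limma, adjusted p = 0.13), SOX11 6.18 (0.23) and DCX 2.36 (0.62), SOX11 in ICSI ESCs 6.19 (0.095), and SOX11 between the stem cell groups -0.0075, a reversed sign, with 0 of 154, 1 of 11275 and 391 of 11150 calls left; ZIC2 in ICSI ESCs stayed called. With signals below the array median raised to it, DCX over the arrays labelled fibroblast had 1.77 in PG-haESCs and -0.28 in ICSI ESCs, and with passage as a covariate 2.45 and -0.47. Leaving out 1 array at a time gave 2.69 to 4.08 and -0.14 to 1.24, the lowest of each without fibroblast array 2; a lone array was assumed to vary like the others. The cause was not tested. Counts of calls ran from 0 to 475 between the stem cell groups, 8 without ICSI ESC array 3. Centring arrays on their medians moved the median of all probe sets over the arrays labelled fibroblast by 0.33 and 0.28 log2 (quantile normalization 0.23 and 0.21), and the share of calls that were higher from 51.4% and 50.5% to 63.7% and 61.6%; between the stem cell groups it went from 81.2% to 21.4% of 14 calls. Without detection calls, signals below the array median have no known floor, which limits DCX most.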
